A study of Homo sapiens with 8 samples.

Results

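The regions described are the p53 ChIP-seq peaks on human chromosome 19 that overlap 6 windows of build hg19 holding the KRAB zinc finger gene clusters of that chromosome. In Mb, window 1 runs from 11.6 to 12.8, window 2 from 19.7 to 24.0, window 3 from 36.5 to 38.5, window 4 from 44.3 to 45.0, window 5 from 52.4 to 54.0 and window 6 from 56.3 to 58.6. The windows were set by gene position and not by any measured value. They cover 12.1 Mb, and 507 of the 97582 peaks in the 4 deposited lists overlap them by at least 1 bp. The comparison area is the rest of chromosome 19 between 0.5 and 58.6 Mb, 46 Mb with 6789 peaks. No peak straddles a window edge.

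All libraries came from 293T, an established line of human kidney origin. Its p53 is bound by the large T antigen of SV40, which 293T expresses in both conditions. The 2 Dox libraries came from cells given doxorubicin, a topoisomerase poison that breaks DNA, at 0.5 µg/ml for 24 h. The 2 PBS libraries came from cells given 20 µL of the vehicle for the same time. Replicate 1 of each condition was made at passage 3 and replicate 2 at passage 5, so the effects of number and passage cannot be separated. The 4 input samples were not analysed here. The design asks which regions p53 occupies at baseline and after DNA damage.

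KRAB zinc finger proteins are the largest family of human transcription factors. Their zinc fingers recognise DNA, often in transposable elements, and the KRAB domain recruits the corepressor TRIM28 and histone methylation that silences chromatin. Their genes arose by tandem duplication and sit side by side in clusters, many of them on chromosome 19. The transcription factor p53 binds DNA as a tetramer and activates genes of cell cycle arrest, repair and cell death.

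The gene content behind the window labels was looked up by name only. In RefSeq on GRCh38.p14, 260 of 1451 protein-coding genes of chromosome 19 (17.9%) have a symbol of the ZNF, ZFP, ZSCAN, ZIM or ZIK series, against 551 of 20052 (2.75%) over all chromosomes. Of the 260, 236 have another such gene as a direct coding neighbour. The longest unbroken runs hold 27 genes from ZNF737 to ZNF681, 24 from ZNF627 to ZNF791 and 24 from ZNF565 to ZNF793. Gene positions on hg19 were not used here, so these runs were not placed in the windows, no peak was assigned to a gene and no sequence is shown.

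The lists differ in length, with 46658 peaks for Dox replicate 1, 16642 for Dox replicate 2, 11304 for PBS replicate 1 and 22978 for PBS replicate 2. Sequencing depth is unknown. Only 2.56% to 5.98% of peaks per list have a −log10 q of at least 1.3 (q of about 0.05), and most peaks are weak. The measures of density, width, strength and recurrence were therefore taken as windows against rest within a list, with the library as the unit. Counts of block peaks, merged sites and matched pairs move with list length. The measures within a list are not free of it either, and some changed at equal list length, as given below. With 4 libraries an exact sign-flip test cannot give a p below 0.125, and with 2 against 2 an exact permutation test cannot go below 0.333. The 8 library tests, 2 of them added after the values had been seen, were adjusted together by the Benjamini-Hochberg method. Nothing says that the replicates were separate cultures beyond their passage, so the p-values refer to the spread of these 4 samples only.

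The zinc finger windows held fewer peaks per Mb than the rest of chromosome 19 in every library, and over all lists 54.0% of the peaks they did hold lay in window 3. In Dox replicate 1 the windows held 226 peaks, or 18.7 per Mb, against 75.5 per Mb outside. Dox replicate 2 had 107 peaks in the windows, 8.84 per Mb against 24.0. PBS replicate 1 had 62, 5.12 per Mb against 17.1, and PBS replicate 2 had 112, 9.26 per Mb against 31.1. The windows make up 20.8% of the area and held 6.11% to 8.85% of its peaks. The density ratio ran from 0.247 in Dox replicate 1 to 0.369 in Dox replicate 2, with a mean log2 ratio of -1.73 ± 0.24 (SD, n = 4 libraries). The ratio was below 1 in 4 of 4 libraries (two-sided exact sign-flip p = 0.125, adjusted p = 0.5). The low density is relative to a chromosome on which peaks are dense. Over the other chromosomes the lists held 14.8, 5.33, 3.61 and 7.40 peaks per Mb in the same order of libraries, and the windows had 1.25 to 1.66 times that density.

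**Figure D1:**
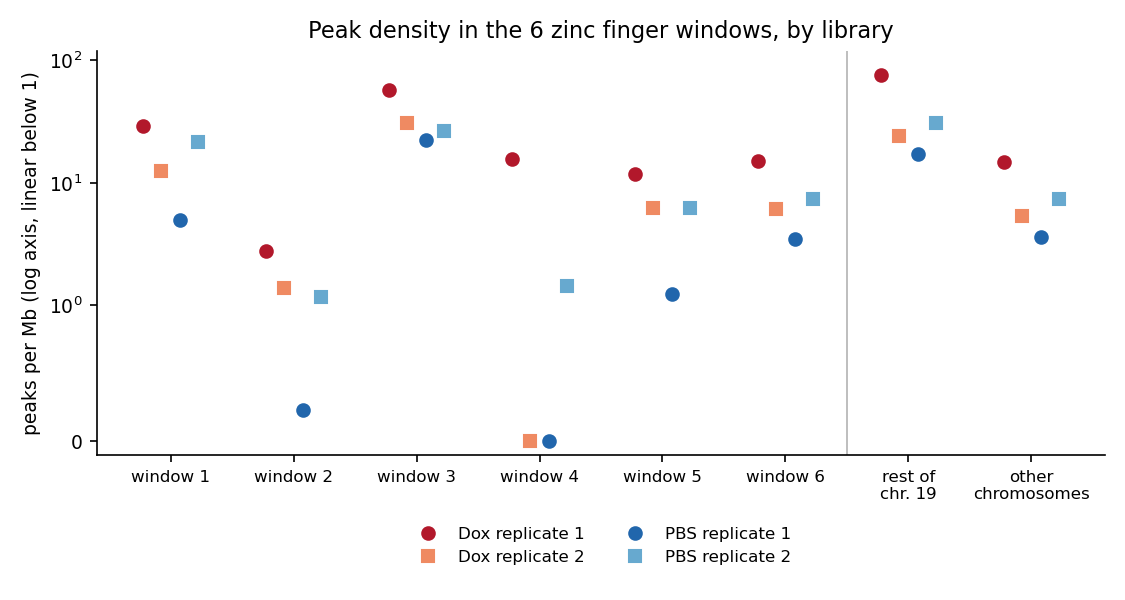
Peaks per Mb (log axis, linear below 1) in each of the 6 windows, in the rest of chromosome 19 and over the other chromosomes, with 1 point per library. Window 3 lies near the level of the rest of chromosome 19 in all 4 libraries, and window 2 lies below it in all 4.

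The 6 windows were far from alike. Window 3 held 274 of the 507 peaks (54.0%), at 57, 31, 22.5 and 26.5 peaks per Mb in Dox replicates 1 and 2 and PBS replicates 1 and 2. These densities were 0.755 to 1.32 times that of the rest of the chromosome, and the libraries fell on both sides of 1. Window 2, the longest with 4.3 Mb, held 24 peaks in all, 12, 6, 1 and 5 in the same order, or 0.0136 to 0.0582 times the density of the rest. It contains the longest stretches without a peak in any list that lie wholly inside a window, of 1890 and 1316 kb. The longest such stretch of the compared area, 3670 kb from 24614526 to 28284581, lay in the rest, beyond the distal end of window 2. Another of 709 kb, from 23507041 to 24216276, crossed that end. Long stretches without a peak were thus not confined to the windows. Whether reads can be placed in any of these stretches was not examined. With the longest stretch left out, the mean log2 density ratio of windows over rest was -1.85 ± 0.24 (SD, n = 4 libraries).

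Window 1 had 35, 15, 6 and 26 peaks, a density of 0.293 to 0.697 times the rest. Window 6 had 35, 14, 8 and 17 peaks and was the most even across lists, at 0.202 to 0.254 times the rest. Window 5 had 19, 10, 2 and 10 peaks, or 0.0732 to 0.261 times. Window 4, the shortest, had 11 peaks in the first Dox library, 1 in the second PBS library and none elsewhere. Apart from window 3, all windows were thus below the rest of the chromosome in each library. Without window 3 the density ratio fell to 0.0986 to 0.188, and the 5 other windows had 0.466 to 0.836 times the density of the other chromosomes.

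The same contrast appeared in steps of 0.5 Mb. Among 21 such bins inside the windows, the median count of peak summits was 5 and 2 for the Dox replicates 1 and 2, and 0 and 1 for the PBS replicates. Among 89 bins of the rest the medians were 37, 11, 7 and 14. The ranges overlapped, since the fullest window bin held 53, 35, 23 and 26 summits and some bins of the rest held none.

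Within window 3 the peaks were concentrated in a pair of short blocks. Over chromosome 19, runs of merged sites (peaks of all lists joined where they share 1 bp) were formed with gaps of at most 10 kb. The blocks are the runs inside the windows that hold 5 or more sites found in all 4 libraries, a choice made after their values had been seen. The proximal block, chromosome 19 from 36760165 to 36799985, is 39.8 kb long and holds 35 sites, 10 of them in all 4 libraries. The distal block, from 37760696 to 37794244, is 33.5 kb long and holds 34 sites, 7 of them in all 4. By the number of sites found in all 4 libraries these were the runs ranked 1 and 2 on chromosome 19, ahead of runs with 6 such sites outside the windows. They cover 0.606% of the window area and held 176 of the 507 peaks (34.7%). Since the choice used recurrence, the recurrence of the blocks is a description and carries no test. The same holds for their density against the rest, since runs join sites that lie close together. Runs of the rest that meet the same rule, with 5 or 6 such sites, hold 11 to 34 sites each over 24.7 to 76.2 kb. These runs were kept wherever the blocks were left out. Values without the blocks thus set trimmed windows against an untrimmed rest.

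The proximal block had 36 and 30 peaks in the 2 Dox lists, replicate 1 first, and 18 in either PBS list. Its peak density was 12, 31.4, 26.5 and 14.5 times that of the rest of the chromosome in those lists. The distal block had 35, 17, 10 and 12 peaks, at 13.8, 21.2, 17.5 and 11.5 times that density. Relative to the rest of the chromosome the conditions thus overlapped in either block, while the raw counts were higher in both Dox lists. Peaks covered 56.8% and 34.7% of the proximal block in the Dox libraries and 14.7% and 14.9% in the PBS libraries. In the distal block they covered 51.0% and 21.5% in Dox and 12% and 11.2% in PBS. Coverage also moves with list length. In the rest of the chromosome it was 2.84% and 0.899% in Dox replicates 1 and 2. There it was 0.592% and 1.20% in PBS replicates 1 and 2. The block coverages were not scaled to these values, so they do not compare the conditions.

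**Figure D2:**
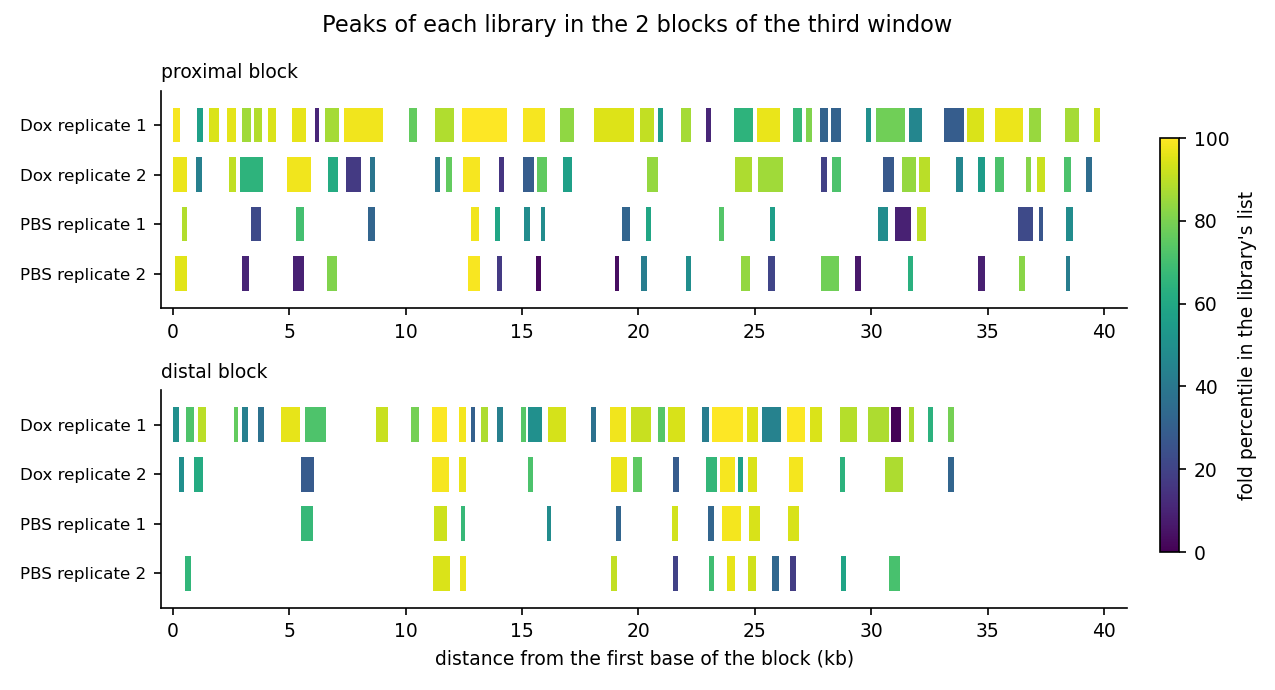
Peaks of each library in the proximal and the distal block, drawn as bars at their distance from the first base of the block in kb and coloured by the percentile of their fold enrichment in the library's own list. The proximal block holds 36 and 30 peaks in the Dox libraries and 18 in each PBS library.

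Outside the blocks, window 3 was below the rest of the chromosome in each library. There it held 43, 15, 17 and 23 peaks over 1.93 Mb, a density of 0.296 to 0.517 times the rest. Leaving both blocks out of all windows lowered the density ratio to 0.171 and 0.208 in Dox replicates 1 and 2 and to 0.166 and 0.219 in PBS replicates 1 and 2.

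Peak width did not differ in 1 direction between windows and rest. The median width in the windows was 332 bp in Dox replicate 1 and 344 bp in Dox replicate 2, against 301 and 308 bp outside. In PBS replicates 1 and 2 it was 286.5 and 278 bp, against 290 and 302 bp. The windows thus held wider peaks in both Dox libraries and narrower ones in both PBS libraries. The mean log2 width ratio was 0.04 ± 0.13 (SD, n = 4 libraries; two-sided exact sign-flip p = 0.5, adjusted p = 0.667). Without the blocks all 4 ratios were below 1, between 0.950 and 0.993. Peaks of 1 kb or more numbered 7, 3, 0 and 1 in the windows in the order used above. They made up 3.10%, 2.80%, 0% and 0.893% of window peaks, against 2.91%, 2.36%, 1.27% and 2.66% in the rest. The widest merged sites in at least 2 libraries, 2309, 2126 and 1941 bp long, all lay in the proximal block. Merged sites join peaks across lists, so their lengths are not peak widths. The widest single peak in the windows had 1941 bp, in Dox replicate 1.

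Peak strength, taken as the percentile of the authors' fold enrichment within the whole list, followed the width. The median percentile of window peaks was 65.2 in Dox replicate 1 and 61.2 in Dox replicate 2, against 49.8 and 56.7 in the rest. In PBS replicates 1 and 2 it was 53.6 and 56.7, against 55.7 and 59.1. The mean difference was 3.83 ± 8.32 percentile points (SD, n = 4 libraries; two-sided exact sign-flip p = 0.625, adjusted p = 0.714). Without Dox replicate 1 it was -0.0095, and without both blocks it was -3.13. The share of window peaks with a −log10 q of at least 1.3 was 7.52% (95% Wilson interval 4.75 to 11.7 per cent, counting error only) in Dox replicate 1 and 9.35% (5.16 to 16.4) in Dox replicate 2, against 2.74% and 4.90% outside. It was 3.23% (0.889 to 11.0) in PBS replicate 1, against 1.02%, and 4.46% (1.92 to 10.0) in PBS replicate 2, against 6.43%.

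**Figure D3:**
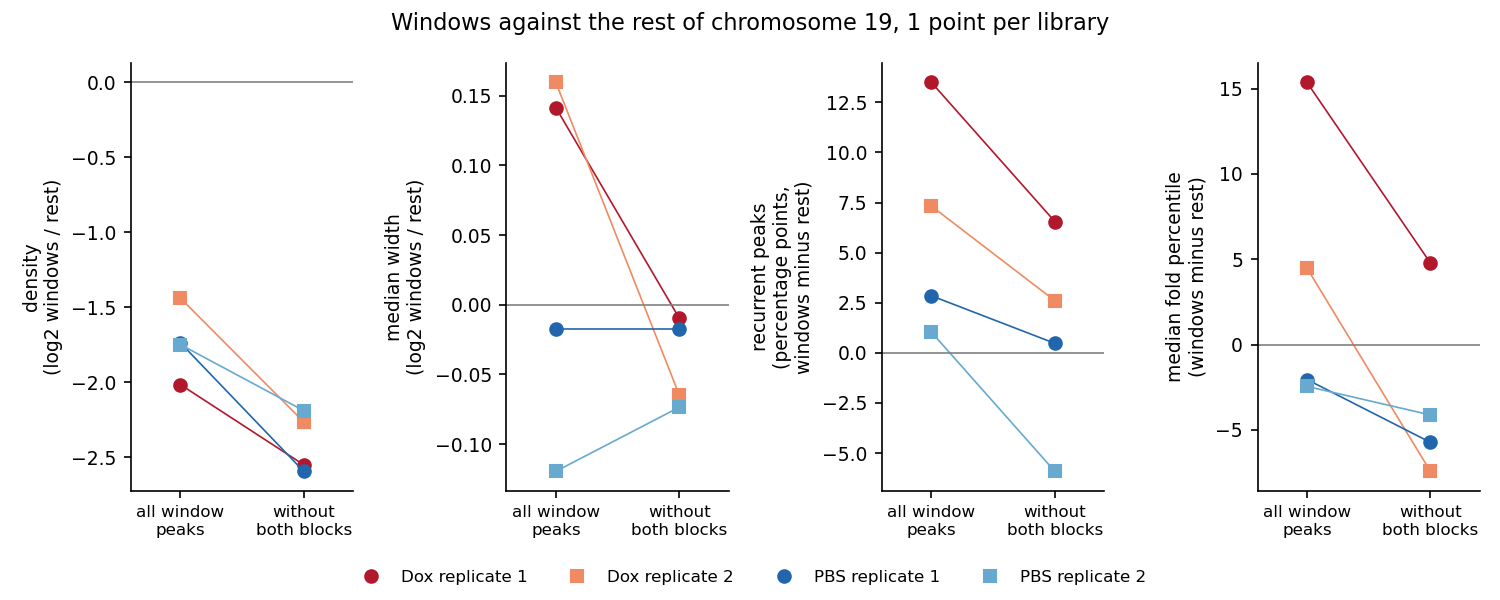
Windows against the rest of chromosome 19 for density and median width (log2 ratio), recurrent peaks (percentage points) and median fold percentile (points), with 1 point per library and the same library joined by a line. With all window peaks the Dox and PBS libraries lie on opposite sides of 0 for width and percentile, and without both blocks the 4 width ratios lie below 0.

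The share of peaks that recurred in another library was higher in the windows than in the rest in each list, by margins that ranged from 1.04 to 13.5 percentage points. A peak was counted as recurrent when it overlapped a peak in at least 1 of the other 3 libraries. In Dox replicate 1, 48.2% of window peaks were recurrent (Wilson interval 41.8 to 54.7 per cent) against 34.7% outside. In Dox replicate 2 the shares were 89.7% (82.5 to 94.2) and 82.4%. In PBS replicate 1 they were 93.5% (84.6 to 97.5) and 90.7%, and in PBS replicate 2 they were 77.7% (69.1 to 84.4) and 76.6%. The mean difference was 6.18 ± 5.55 percentage points (SD, n = 4 libraries), above 0 in 4 of 4 libraries (two-sided exact sign-flip p = 0.125, adjusted p = 0.5). It was 9.79 points without PBS replicate 2 and 0.75 points among peaks with a −log10 p of at least 3. In the PBS libraries the difference lay within the counting interval. Peaks in all 3 other libraries made up 14.6%, 31.8%, 51.6% and 30.4% of window peaks in the same order of libraries, against 9.16%, 29.2%, 40.4% and 22.2% outside. Without both blocks the mean recurrence difference was 0.931 ± 5.21 points, and it was below 0 in PBS replicate 2, at -5.91. The blocks were chosen for recurrence and like runs of the rest were kept, so this comparison is not an even one.

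Merged over the lists, the windows held 264 sites and the rest of the chromosome 4159. Of the window sites 35 (13.3%, Wilson interval 9.69 to 17.9 per cent) had a peak in all 4 libraries, against 7.55% in the rest and a background of 6.01% over all 63890 sites of the genome. Window 3 held 26 of these 35 sites, window 6 held 5, window 1 held 3, window 5 held 1, and windows 2 and 4 held none. The blocks held 17 of them. Outside the blocks, 18 of 195 window sites (9.23%) were found in all 4 libraries. Sites of a single library numbered 157 (59.5%), of which 117 came from Dox replicate 1, the longest list. In the rest of the chromosome 68.9% of sites came from a single library.

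**Figure D4:**
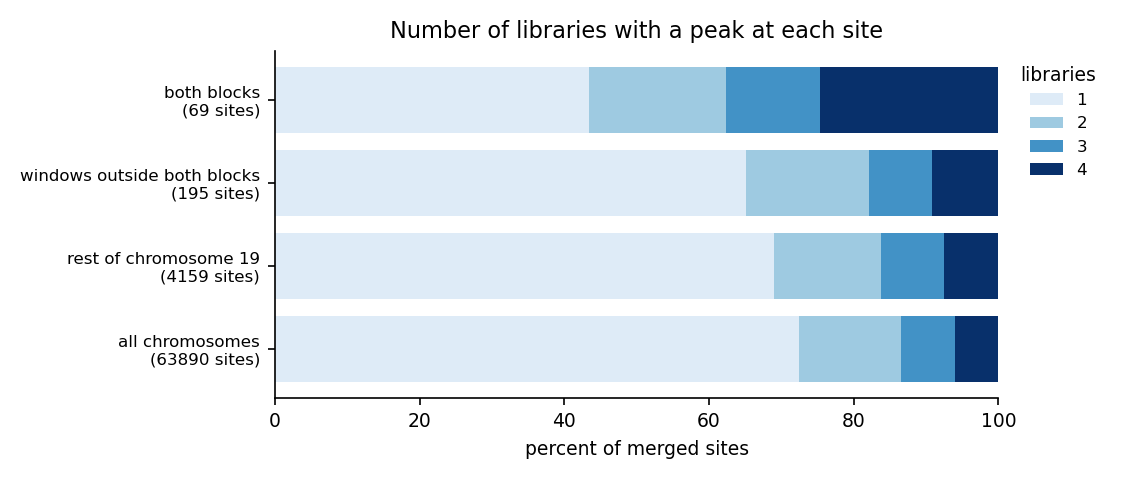
Percent of merged sites with a peak in 1, 2, 3 or 4 libraries, for both blocks, the windows outside them, the rest of chromosome 19 and all chromosomes. Sites in all 4 libraries make up 24.6% in the blocks, which were chosen for this, and 9.23% in the windows outside them.

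The strongest site of the windows lay alone in window 5, from 53798217 to 53798738. Its enrichment by the authors' fold was 9.85 and 9.32 in Dox (replicates 1 and 2) and 6.96 and 10.5 in PBS. It was the window peak with the highest fold in each of the 4 lists, at or above the percentile 99.4 of each whole list, and the conditions overlapped. Also in window 5, the site from 53837469 to 53837993 had folds of 2.63 and 3.27 in Dox and was without a peak in either PBS list.

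Of the 10 leading sites, those in all 4 libraries ranked by their lowest percentile of −log10 p, 9 lay in window 3 and 7 in its blocks. In the distal block the site from 37783448 to 37785205 had folds of 8.25 and 5.65 in Dox, replicate 1 first, and of 5.16 and 4.74 in PBS. Together with the site in window 5 it was the only window site with a −log10 q of at least 1.3 in all 4 libraries. In the proximal block the site from 36772596 to 36774536, 1941 bp wide, had folds of 7.97 and 5.68 in Dox and 4.98 and 6.24 in PBS. The distal site from 37771832 to 37772584 had folds of 6.50 and 5.68 in Dox and 3.85 and 4.30 in PBS. Each list has its own fold scale, so these values rank sites within a list and do not compare conditions.

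The other leading sites of the blocks ranked from 5 to 9, although in single lists some exceeded sites ranked above them. Next to the strongest distal site, the one from 37785369 to 37785927 had between 3.99-fold and 4.16-fold enrichment, the narrowest range of the 10. The distal site from 37772973 to 37773286 had 4.98 and 4.58 in Dox and 2.88 and 5.02 in PBS. At the start of the proximal block, the site from 36760165 to 36760774 had 5.18 and 4.74 in Dox and 3.50 and 4.54 in PBS. The widest site of the windows, 2309 bp from 36790369 to 36792677, had a fold of 3.00 to 3.74 in each list. The next widest, from 36795490 to 36797615 and not among the 10 leading sites, had 4.54 and 3.90 in Dox and 2.39 and 3.49 in PBS. Width and fold thus gave a different order of sites.

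**Figure D5:**
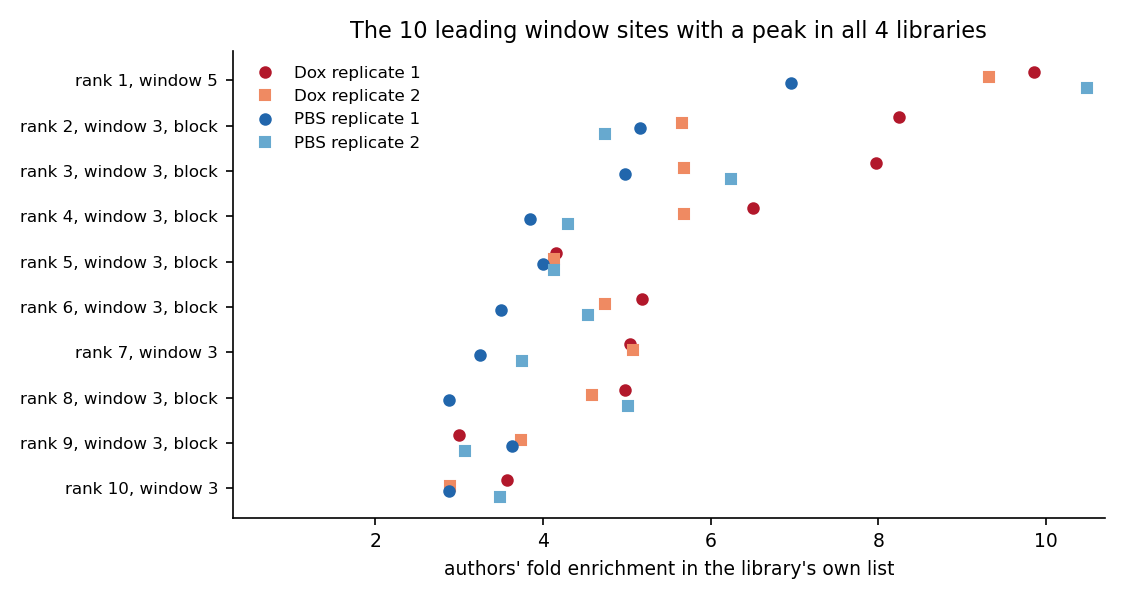
The authors' fold enrichment, on the scale of each library's own list, of the 10 leading window sites with a peak in all 4 libraries, ranked by their lowest percentile of −log10 p, with 1 point per library. The site ranked 1, in window 5, has 6.96-fold to 10.5-fold enrichment, and 7 of the other 9 lie in the blocks of window 3.

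The other window 3 sites of this rank lay outside the blocks. The site from 37328720 to 37329612 had folds of 5.04 and 5.07 in Dox and 3.25 and 3.75 in PBS. The site from 36545153 to 36545793 had between 2.88-fold and 3.57-fold. The leading site of window 1, from 12791728 to 12793437, had folds of 2.74 to 3.47, and the next, from 11707523 to 11709108, had 2.51 to 3.65. In window 6 it ran from 57106699 to 57107477, with 5.28-fold in Dox replicate 1 and 2.74-fold to 3.10-fold in the others. The next in window 6, from 56652075 to 56652603, was weakest in Dox replicate 1, at 1.94, and had 3.01 to 4.42 in the other lists. Window 2 had no site in all 4 libraries, and its leading site, from 19887262 to 19887690, had 3.17 in Dox replicate 2 and 3.29 and 4.11 in the PBS lists, with no peak in Dox replicate 1. The next in window 2, from 21264805 to 21265493, had 2.92 and 3.25 in Dox and 2.13 in PBS replicate 2. In window 4 the leading site, from 44405604 to 44406164, was found in Dox replicate 1 at 3.80-fold and in PBS replicate 2 at 3.08-fold.

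In all, 17 window sites (6.44%, Wilson interval 4.06 to 10.1 per cent) had a −log10 q of at least 1.3 in at least 1 library, against 3.85% of sites in the rest and a background of 3.83% over all sites. Outside the blocks the share was 2.05% of window sites. Of these, 15 lay in window 3, 13 in its blocks, and 16 had a peak in all 4 libraries at any q. Sites that reached this q in both Dox libraries numbered 10 (3.79%), of which 8 lay in the blocks, against 0.625% in the rest and a background of 0.847%. Outside the blocks 1.03% of window sites did so (Wilson interval 0.282 to 3.66 per cent), an interval that holds both of these shares. In both PBS libraries 2 sites (0.758%) reached this q, against 0.168% in the rest and a background of 0.401%. Outside the blocks it was 0.513% of window sites. Besides sites named above, the Dox sites included one from 36765051 to 36766107 in the proximal block, with folds of 4.27 and 5.20 in Dox and 2.92 and 2.24 in PBS. In the distal block they included one from 37779455 to 37780213, with 4.77 and 4.78 in Dox and 2.46 and 3.95 in PBS, and one from 37787073 to 37787849, with 6.87 and 5.41 in Dox and 3.99 and 2.38 in PBS. All 10 had a peak in both PBS libraries as well.

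The density of window peaks relative to the rest overlapped between the conditions on whole lists. The mean log2 density ratio was -1.73 ± 0.41 in Dox and -1.74 ± 0.01 in PBS (SD over 2 libraries each), a difference of 0.02 (two-sided exact permutation p = 1). Within replicate number 1 the difference was -0.28 and within number 2 it was 0.31. At equal list length (the 11304 peaks of smallest p from each list) it was 0.47 (two-sided exact permutation p = 0.333), with log2 ratios of -1.24 and -1.37 in Dox above -1.74 and -1.82 in PBS. It was 0.54 among peaks with a −log10 p of at least 3, again without overlap. At a −log10 q of at least 1.3 it was 0.64, on 2 and 5 window peaks in PBS replicates 1 and 2, and the conditions overlapped. The recurrence difference was larger in Dox, 10.4 ± 4.36 points against 1.94 ± 1.28 (SD over 2 libraries each; exact permutation test, two-sided, p = 0.333, adjusted p = 0.533). It was larger by 10.6 points within number 1 and by 6.29 within number 2. This direction turned to -5.71 points when a peak in all 3 other libraries was required, to -5.94 at equal list length and to -3.26 without Dox replicate 1.

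Width and strength in the windows lay on opposite sides of the rest in the conditions, higher in Dox and lower in PBS. The log2 width ratio was 0.15 ± 0.01 in Dox and -0.07 ± 0.07 in PBS (SD over 2 libraries each). The difference of 0.22 was 0.16 within number 1 and 0.28 within number 2 (exact permutation test, two-sided, p = 0.333, adjusted p = 0.533). The percentile difference was 9.92 ± 7.69 points in Dox and -2.25 ± 0.29 in PBS, a difference of 12.2, with 17.4 within number 1 and 6.94 within number 2 (two-sided exact permutation p = 0.333, adjusted p = 0.533). The groups did not overlap in either measure. Both tests were added after this had been seen, and without overlap the exact permutation test could give no other p. Without both blocks the differences were 0.01 for width and 3.60 points for percentile, and the groups overlapped. At equal list length the width difference was 0.23 and the percentile difference 4.27. Without Dox replicate 1 the percentile difference was 6.73, and among peaks with a −log10 p of at least 3 it was 0.016. At equal list length and at this p the percentiles were still those of the whole lists, which were cut to unlike degrees.

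In the proximal block, the mean number of peaks was 33 ± 4.24 in Dox and 18 ± 0 in PBS (SD over 2 libraries each; exact permutation test, two-sided, p = 0.333). Among 109 runs of 10 or more sites on chromosome 19, both Dox libraries held more peaks than both PBS libraries in 22.0%, and both blocks were among them. At equal list length the proximal block had 24 and 23 peaks in Dox and 18 and 8 in PBS, and the distal block had 20 and 16 against 10 and 9. At this length 8.26% of the runs had more peaks in both Dox libraries, both blocks among them, and 11.9% had fewer. As a share of the whole list the conditions overlapped. Per 10000 peaks the proximal block held 7.72 and 18.0 in Dox and 15.9 and 7.83 in PBS.

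On whole lists the peaks of the proximal block also differed in width and strength. Their median width was 471 and 386.5 bp in Dox replicates 1 and 2 and 295.5 and 266.5 bp in PBS replicates 1 and 2, with no overlap. The same held for 16.5% of the 109 runs. Their median fold percentile was 86.3 and 71.7 in Dox and 48.3 and 41.9 in PBS, again with no overlap, which 11.0% of the runs showed. At equal list length neither separation held. The median widths were 590.5 and 390 bp in Dox and 295.5 and 404 bp in PBS. The median percentiles, still those of the whole lists, were 92.9 and 75.8 in Dox and 48.3 and 81.6 in PBS. The cut kept 11304 of 46658 peaks in Dox replicate 1 and all peaks of PBS replicate 1. In PBS replicate 2 it left 8 peaks in the block. Medians and run shares at this length therefore also depend on how much of each list was cut. At that length 22.0% of the runs were wider and 19.3% stronger in both Dox libraries. On whole lists the median spacing between neighbouring summits was 1048 and 1049 bp in Dox and 1856 and 1942 bp in PBS. Spacing moves with the number of peaks in the block, 36 and 30 in Dox and 18 in each PBS list, and is not a separate trait. In the distal block the conditions overlapped in median width (336 and 382 against 379 and 272.5 bp) and in median percentile (79.1 and 71.7 against 79.7 and 70.2). At equal list length its widths did not overlap, at 568.5 and 382.5 against 379 and 287 bp, and its percentiles still did.

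By presence alone, 16 window sites (6.06%) were shared by the Dox libraries and absent from either PBS list, against a background of 3.11% over all sites. The blocks held 9 of the 16, or 13.0% of their 69 sites, and outside the blocks the share was 3.59% of 195. The leading site of this kind, from 36762472 to 36762888 in the proximal block, had 4.24-fold and 3.76-fold enrichment. It was followed by the site from 36771422 to 36772252 in the same block, with 3.37-fold and 3.24-fold. In the opposite direction, 3 window sites (1.14%) were shared by the PBS libraries and absent from either Dox list, against a background of 0.928%, and none of them lay in the blocks. They ran from 12662147 to 12662718, with 2.88-fold and 3.28-fold enrichment, from 57019592 to 57019929, with 2.64-fold and 2.54-fold, and from 37701127 to 37701414, with 2.18-fold and 3.10-fold. Lists of unlike length have unlike chances of such sites.

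The authors' tables of peak pairs matched between replicates gave the same order of areas. Of 8784 Dox pairs, 76 lay in the windows, 6.28 per Mb against 15 per Mb in the rest. Of 6244 PBS pairs, 41 lay in the windows, 3.39 per Mb against 10.8. At an irreproducible discovery rate (IDR) of at most 0.05, 20 Dox pairs remained in the windows, 26.3% of those there, against 16.4% in the rest and 27.5% of the whole table. For PBS 7 pairs remained, 17.1% against 13.9% in the rest and 15.0% of the table. The blocks held 36 of the 76 Dox pairs and 16 of those 20, and 18 of the 41 PBS pairs and 4 of those 7. There is 1 table per condition, so these counts have no replicate error.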

How the data were processed

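ChIP-seq for p53 was read from 4 deposited lists of MACS2 peaks, 1 per library. The submitters' processing notes name BWA, MACS2 and the build hg19. Versions and settings were not given in the sources used, except that peak names carry a threshold of p under 0.05. The authors' lists give a fold enrichment over local background per peak, a ratio, and the p-value and q-value as −log10. The deposited tables of matched pairs give an IDR, read here as a q-value, per the file headers. Read depth is unknown.

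The members, lists and tests were chosen with earlier results of these data known. Named sites were the 10 leading sites in all 4 libraries, up to 2 best per window (those in all 4 libraries, or else in the most), up to 3 exclusive to each condition, the 3 widest, the highest fold per list, and sites whose −log10 q reached 1.3 in every library of Dox or of PBS. Wilson intervals use a 95% level. Whether equal numbers pair samples was checked by correlating, over sites, the difference between replicates in Dox and in PBS, which gave 0.213 on whole lists and 0.074 at equal length. The planned gene position and motif steps needed an hg19 genome and were not run. Functions were tested on simulated lists. Tests and plots used scipy 1.17.1, pandas 2.3.3, numpy 2.4.6 and matplotlib 3.10.9 under Python 3.11.15.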

Additional observations from a re-analysis of the deposited data

Results flagged for a closer look

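The windows against rest contrast of peak width pointed in opposite directions in the conditions. Every Dox library had wider and every PBS library narrower peaks in the windows, with a Dox minus PBS difference of 0.22 on the log2 scale. The contrast of fold percentile did the same, with a difference of 12.2 points. The permutation test of each difference, exact and two-sided, gave p = 0.333, the smallest that 2 against 2 libraries allow. Both tests were added after the values had been seen, and with groups that do not overlap no other p was possible. Width and fold come from the same peaks and are not separate support. Leaving out both blocks of window 3 brought the differences to 0.01 and 3.60 points, and leaving out Dox replicate 1 brought the second to 6.73. What the blocks consist of was not tested.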

How the results depend on the processing

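The windows remained less dense than the rest under every alternative run, with mean log2 ratios from -2.74 without window 3 to -0.85 at a −log10 q of at least 1.3. At this q minimum the ratios were -0.56 and -0.51 in Dox replicates 1 and 2, on 17 and 10 window peaks. In PBS replicates 1 and 2 they were -0.07 and -2.28, on 2 and 5 window peaks. The mean recurrence difference stayed above 0, from 0.75 at a −log10 p of at least 3 to 22.1 at the q minimum, on the same few window peaks. It ran from 5.27 to 9.79 with 1 library left out. Without window 3 the mean was 1.08, with 4.55 and -2.40 in Dox replicates 1 and 2 and 9.30 and -7.15 in PBS replicates 1 and 2. Counting peaks by summit or once per start and end could change nothing, since no peak straddles a window edge and no start and end were repeated. The mean log2 width ratio turned to -0.078 at the q minimum, to -0.041 without the blocks and to -0.042 without window 3, and ranged from 0.0015 to 0.09 with 1 library left out. The strength difference turned to -0.0081 at the p minimum, to -3.13 without the blocks and to -4.27 without window 3; leaving out 1 library gave -0.0095 to 5.93. The Dox minus PBS difference in log2 density ratio turned to -0.016 without the blocks and to -0.027 with windows shortened by 100 kb at each end, and ranged from -0.27 (without Dox replicate 2) to 0.30 with 1 library left out; it rose to 0.47 at equal list length, 0.54 at the p minimum and 0.64 at the q minimum. That in recurrence turned to -9.54 at the q minimum, -7.33 at the p minimum, -5.94 at equal list length and -5.71 for a peak in all 3 others, and ranged from -3.26 to 9.98 with 1 library left out. That in width turned to -0.025 without window 3. That in strength fell from 12.2 to 4.27 at equal list length and to 0.016 at the p minimum, and ranged from 6.73 to 17.6 with 1 library left out. In all cut lists the percentiles were still those of the whole lists, so these strength values also depend on the cut. In the distal block the difference in median percentile (0.43) turned to -2.21 at equal list length and ranged from -4.34 to 5.19 with 1 library left out, and that in median width (33.2 bp) ranged from -20 to 86.5 bp. At the p minimum, 6 sites were exclusive to Dox, 0 to PBS and 6 in all 4 libraries, and at equal list length 8 were exclusive to Dox and 20 in all 4. At an IDR of at most 0.05, 20 Dox and 7 PBS pairs remained. With the replicate block (exact permutation within number) the recurrence difference of 8.47 had p = 0.5, the smallest possible, and no call changed. No result passed 0.05 under any setting, which these small designs do not allow. The shortened windows, the omission of blocks or window 3, and the block comparisons were chosen after the data were seen. Omitting the blocks trimmed the windows alone, since runs of the rest that meet the same rule were kept. The cause of these changes was not tested.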

Other observations

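The pairing of libraries behind the recurrence of window peaks was uneven. Of the Dox replicate 2 peaks in the windows, 82.2% overlapped Dox replicate 1, against 68.1% in the rest of chromosome 19. Of the PBS replicate 1 peaks in the windows, 75.8% overlapped Dox replicate 2, against 53.5% in the rest. PBS replicate 1 and PBS replicate 2 overlapped in the windows as in the rest, with 67.7% against 68.0% of the peaks of replicate 1. Overlap was higher in the windows in 10 of 12 ordered pairs of libraries. The pairs share lists and were not tested. The window peaks here include both blocks, which were chosen for recurrence.

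Recurrence was also read within ranges of fold. Among peaks at or above percentile 75 of fold in their list, 74.4%, 100%, 100% and 96.6% of window peaks in Dox replicates 1 and 2 and PBS replicates 1 and 2 were recurrent, against 71.5%, 94.4%, 96.9% and 92.6% of peaks in the rest. Among the weaker peaks the shares were 30.9%, 85.1%, 91.1% and 71.1%, against 22.2%, 77.1%, 88.2% and 69.8%. In both ranges the windows were higher in all 4 libraries. These are descriptions, with 17 to 136 window peaks per value. They include both blocks, which were chosen for recurrence, and were not repeated without them.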
